A study of Rattus norvegicus with 36 samples.

Results

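The Wnt, BMP and TGF-beta signalling families were examined in the DNA methylation lists of male rat germ cells. Genes were taken when an annotated region lay in a gene whose symbol started with Wnt, Fzd, Bmp, Smad, Tgfb, Acvr, Axin, Dvl, Tcf7 or Gdf, or was Lrp5, Lrp6, Lef1, Apc, Ctnnb1 or a R-spondin. This gave 62 genes with 255 regions, of 8133 named genes with 28182 named regions. Of 96 family genes in the rat gene names, 34 had no annotated region here, among them Bmp2, Gdf9, Tgfbr1, Axin1 and Fzd7. A further 1769 annotated regions could not be given a symbol and may lie in family genes, so the counts of genes with a region may be too low. By role, 13 of 19 Wnt ligands, 2 of 4 R-spondins, 6 of 12 Wnt receptors and 7 of 11 Wnt proteins of the cytoplasm and nucleus had a region. So did 10 of 20 BMP and GDF ligands, 3 of 3 TGF-beta ligands, 9 of 12 receptors of the TGF-beta superfamily and 7 of 8 Smads. The other 5 genes shared only a prefix or a binding partner with the families: Bmp1, Bmper, Tgfbi, Tgfb1i1 and Tgfbrap1.

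Methylation was measured by bisulfite sequencing of a captured part of the rat genome in sorted germ cells. They came from transgenic rats (Sprague-Dawley) with a green fluorescent protein specific to germ cells (GCS-EGFP), and the sort used this protein. The 9 stages had 4 samples each, 36 in all: gonocytes at gestational days 16, 18 and 20 (GD16, GD18, GD20), spermatogonia at postnatal day 5 (PND5), spermatids labelled R1-8, R9-12, R13-14 and R15-17, and spermatozoa. All stages shared the transgene and none was treated, and the DNA of spermatozoa was extracted with another kit than that of the other stages. The 7 deposited lists each compare a stage with the one before it, and no list used here compares R1-8 spermatids with PND5 spermatogonia. A list gives the authors' mean methylation level of a region at both stages, as a share of CpGs read as methylated, so that no value per sample, SD or depth stands behind the levels printed here. A region was listed where the levels differed by at least 30 percentage points in the gonocyte and spermatogonial lists or 10 points in the spermatid lists, with at least 5 CpGs and an adjusted p of at most 0.05 in the authors' deposited table. The labels leave unsaid whether samples of 1 stage are separate animals, and the units that the authors' t-test compared were not given. The p-values may then measure technical spread or spread within a region, and they are not read here as spread between animals. Expression was not measured, so the sorted cells could not be checked against marker transcripts.

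Wnt ligands bind Frizzled receptors with the co-receptors Lrp5 and Lrp6, which stabilises beta-catenin (Ctnnb1) against the destruction complex of Apc and Axin, and beta-catenin then acts with Tcf and Lef factors on target genes. BMP, GDF, activin and TGF-beta ligands bind pairs of type I and type II receptor kinases that phosphorylate receptor Smads, which enter the nucleus with Smad4, while Smad6 and Smad7 inhibit them. In the mammalian embryo, BMP signals induce primordial germ cells, and male germ cells lose most DNA methylation and begin to set it anew before birth.

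Most promoter windows found for these genes were rich in CpGs, and few of their listed regions were annotated as promoter. RefSeq promoter windows of GRCr8, from 250 bases before to 50 after a gene's start, were found for 49 of the 62 genes. The others were Acvr1, Acvrl1, Bmp1, Bmp7, Bmpr1b, Fzd2, Fzd6, Lrp5, Lrp6, Smad6, Wnt10b, Wnt5b and Wnt7b. The median window of the family genes held 26 CG dinucleotides, against 7 over all 33469 windows, and 65.3% of them held at least 20, against 24.2% of all windows. No background limited to protein-coding genes, or to genes with a region, was set beside these values, so they do not mark the families out from such genes. CG reads the same on both strands, and 94.5% of all windows held at least 1. Of the 255 family regions, 3 (1.18%) were annotated as promoter, in Tgfbr3, Bmpr1b and Lrp6, against 4.33% of all named regions. The window of Tgfbr3 is shown because a listed region lies in its promoter, and that of Wnt4 as an example of the richest windows. The windows follow the start that RefSeq annotates, and other starts of a gene were not looked at. Letters are 5′ to 3′ on the gene's strand with each CG in capitals. The Tgfbr3 window is chr14:2634044-2634343 (+ strand, 26 CG) and the Wnt4 window is chr5:154797200-154797499 (+ strand, 53 CG).
Tgfbr3: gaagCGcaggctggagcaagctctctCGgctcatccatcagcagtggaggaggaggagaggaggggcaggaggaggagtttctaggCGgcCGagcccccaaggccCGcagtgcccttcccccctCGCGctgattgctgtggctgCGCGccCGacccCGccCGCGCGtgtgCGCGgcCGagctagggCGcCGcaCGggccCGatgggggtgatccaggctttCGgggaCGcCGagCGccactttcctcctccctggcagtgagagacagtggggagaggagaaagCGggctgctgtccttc
Wnt4: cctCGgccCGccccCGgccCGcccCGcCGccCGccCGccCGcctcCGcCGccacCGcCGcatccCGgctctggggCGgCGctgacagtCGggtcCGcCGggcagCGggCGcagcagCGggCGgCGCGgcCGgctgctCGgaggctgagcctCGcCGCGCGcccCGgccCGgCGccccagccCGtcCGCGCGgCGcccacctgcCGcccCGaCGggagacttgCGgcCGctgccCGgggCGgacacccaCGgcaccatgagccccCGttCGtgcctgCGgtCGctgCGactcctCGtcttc
The coordinates of these windows are those of GRCr8 and cannot be set against those of the region lists, whose build was not given in the sources used here. Regions below have the coordinates of the lists.

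By gene part, 190 family regions (74.5%) lay in introns, against 75.2% of all named regions. Exons held 38 (14.9%, against 12.6%), 3′ untranslated regions 12 (4.71%, against 3.44%) and transcription termination sites (TTS) 12 (4.71%, against 4.13%). The median region had 2.18 CpGs per 100 bp and was 462 bp long, against 2.09 CpGs per 100 bp and 449 bp over all named regions. Tgfbr3 had the most regions with 22, followed by Smad1 with 15, and Axin2 and Bmp7 with 13 each. At the other end, 16 genes had a single region, among them Bmp4, Wnt5a, Smad5 and Rspo3. Some family genes are neighbours: 25.7 kb separate the listed regions of Wnt9b and Wnt3 on chromosome 10, 27.0 kb those of Wnt6 and Wnt10a on chromosome 9, and 32.6 kb those of Acvrl1 and Acvr1b on chromosome 7.

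Between GD16 and GD18, 0 of the 62 family genes had a listed region. Over all named genes 1.13% were listed in this comparison, and 282 regions were listed in all, of which 93 carried a gene name. Regions that did not pass are not analysed here, so smaller differences in the family genes cannot be counted. Regions without a name may lie in family genes, so the absence of these genes from the list is not certain.

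Between GD18 and GD20, 54 of the 62 family genes (87.1%) had at least 1 listed region, beside 84.5% of all named genes. A gene came into the annotation largely through this list and the next, so a high share was built in for any set. Only 23023 of the 44477 regions of this list carried a gene name, so the absence of a gene from it is not certain. All 215 listed family regions were higher at GD20, by a median of 49.0 points, against 50.5 points over all 23023 listed named regions. The median family level was 54.3% at GD20, against 5.1% at GD18.

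Among the Wnt ligands, 31 regions of 12 genes gained methylation by GD20, by a median of 47.0 points. Wnt3, a ligand of the beta-catenin pathway, held the highest GD20 level of all family regions, in the last intron (chr10:91869856-91870950). That region was at 86.0% at GD20, against 9.0% at GD18. The region next to it, which shares 3 bp with it, was at 38.9% at GD20, against 3.1% at GD18, so that neighbouring stretches of 1 intron stood 47.1 points apart. Wnt7a, a ligand best known in female tract and nervous system development, followed with 79.7% at GD20, against 8.4% at GD18, in its 3′ untranslated region (chr4:122995532-122996006). The intron 4 region of Wnt5b, a ligand of the branch without beta-catenin, was at 66.4% at GD20, against 5.6% at GD18. At the low end, Wnt6 was at 35.3% at GD20, against 4.8% at GD18, in intron 1, and its neighbour Wnt10a at 37.5%, against 2.6%. Wnt5a, which acts in planar cell polarity, had a single region at 34.8% at GD20, against 3.9% at GD18. Wnt10b had no named region in this list, and its only named region stood at 12.6% at GD20.

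Of the R-spondins, secreted amplifiers of Wnt signals, Rspo1 was at 36.1% at GD20, against 4.4% at GD18, in intron 1. Rspo3 was not in this list, and its region in intron 4 (chr1:30760641-30760758) was at 5.6% at GD20, the lowest GD20 level of the 244 family regions that had one. Of the Wnt receptors, 15 regions of 4 genes gained. The co-receptor Lrp6 reached 67.7% at GD20, against 4.5% at GD18, in intron 19, and all 6 regions of its partner Lrp5 gained, to levels between 41.8% and 64.4%. Fzd1, a Frizzled gene of a single exon, was at 50.9% at GD20, against 4.4% at GD18, at its TTS. Fzd6, a Frizzled of planar cell polarity, had regions at 37.0% and 51.3% at GD20.

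All 7 Wnt genes of the cytoplasm and nucleus gained, over 37 regions with a median of 50.3 points. Tcf7l1, a Tcf factor that mostly represses, was at 72.3% at GD20, against 5.4% at GD18, in intron 3. Ctnnb1, beta-catenin itself, was at 71.3% at GD20, against 8.5% at GD18, in intron 6, and its exon 3 region was at 44.6%, against 3.7%. Apc, a scaffold of the destruction complex, was at 71.5% at GD20, against 9.0% at GD18, in intron 9. Axin2, a negative-feedback target of the pathway, reached 70% at GD20, against 6.3% at GD18, in intron 7. Each of these 4 genes held a region at 70% or more and another at 44.6% or less. Lef1, a nuclear partner of beta-catenin, was more even, with 8 regions between 39.7% and 60.5% at GD20. Dvl1 and Dvl3, which relay the Frizzled signal, lay between 42.8% and 55.2%.

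Of the BMP and GDF ligands, 21 regions of 8 genes gained, by a median of 53.2 points. Bmp7, a ligand of many developing organs, was at 67.6% at GD20, against 5.6% at GD18, in intron 2. Bmp6 was even along the gene, with GD20 levels between 63.5% and 64.3% in 3 regions. Bmp3, an antagonist-like member of the family, was lower at 49.4% at GD20, against 4.0% at GD18, in intron 1. Gdf11, a ligand of axial patterning, had 1 region at 58.1% at GD20, against 3.2% at GD18. Bmp4, the ligand known for germ cell induction in the mouse, had no named region in this list, and its exon 3 region was at 20.7% at GD20.

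The 3 TGF-beta ligands had 8 regions, all of which gained. Tgfb3 was at 72.4% at GD20, against 5.3% at GD18, in intron 3, while a region of the same intron 560 bp away was at 42.8%, against 3.8%. Tgfb2 had 3 regions between 49.2% and 50.6% at GD20, and Tgfb1 had 1 at 53.4%. Thus the regions of Tgfb2 hardly differed among themselves, while those of Tgfb3 spread from 35.3% to 72.4%.

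All 9 receptor genes gained, over 56 regions with a median of 46.3 points. Tgfbr3, betaglycan, a co-receptor of TGF-beta and inhibin, was at 78.6% at GD20, against 7.6% at GD18, in intron 2. Acvr2b, a type II receptor for activins, was at 75.6% at GD20, against 7.2% at GD18, in intron 1. The type I receptor Acvr1b was at 75.2% at GD20, against 8.8% at GD18, in intron 1. The type I receptor Acvr1 was at 69.7% at GD20, against 4.6% at GD18, in intron 3. Acvr1c, a type I receptor for Nodal and activins, had the smallest of the largest differences per gene among the receptors, with 36.6% at GD20, against 3.1% at GD18, in exon 3. The lowest receptor region of this list was in intron 3 of Bmpr2, the type II BMP receptor, at 33.0% at GD20, against 2.6% at GD18. The promoter region of Bmpr1b, a type I BMP receptor, was 1 of the 3 promoter regions (chr2:247437962-247438091, 7 CpGs). It was at 66.4% at GD20, against 6.3% at GD18. Tgfbr2, the type II receptor of TGF-beta, gained in 10 regions, which lay between 44.3% and 62.6% at GD20.

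Of the Smads, 32 regions of 5 genes gained, by a median of 53.0 points. Smad1, a receptor Smad of the BMP branch, was at 71.0% at GD20, against 4.8% at GD18, in intron 1, and 74.2%, against 10.8%, in intron 2. The inhibitory Smad7 was at 71.4% at GD20, against 5.3% at GD18, in intron 3. Smad2, of the TGF-beta branch, was at 70.2%, against 6.1%, in intron 8. Smad3, its close relative, reached 62.8%, against 5.8%, in intron 1. Smad4, the common partner, reached 65.7%, against 4.8%, in intron 9. Smad5 and Smad6 had no named region in this list and stood at 16.4% and at 25.2% and 25.4% at GD20. Of the genes that share only a prefix, Tgfbrap1, a protein that binds the TGF-beta receptor, was at 77.2% at GD20, against 9.2% at GD18, in exon 7. Bmp1, a metalloprotease that cleaves procollagen, was at 69.3%, against 7.9%, in intron 6, and Bmper, a secreted BMP-binding protein, at 42.0%, against 5.2%, in intron 10.

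**Figure D1:**
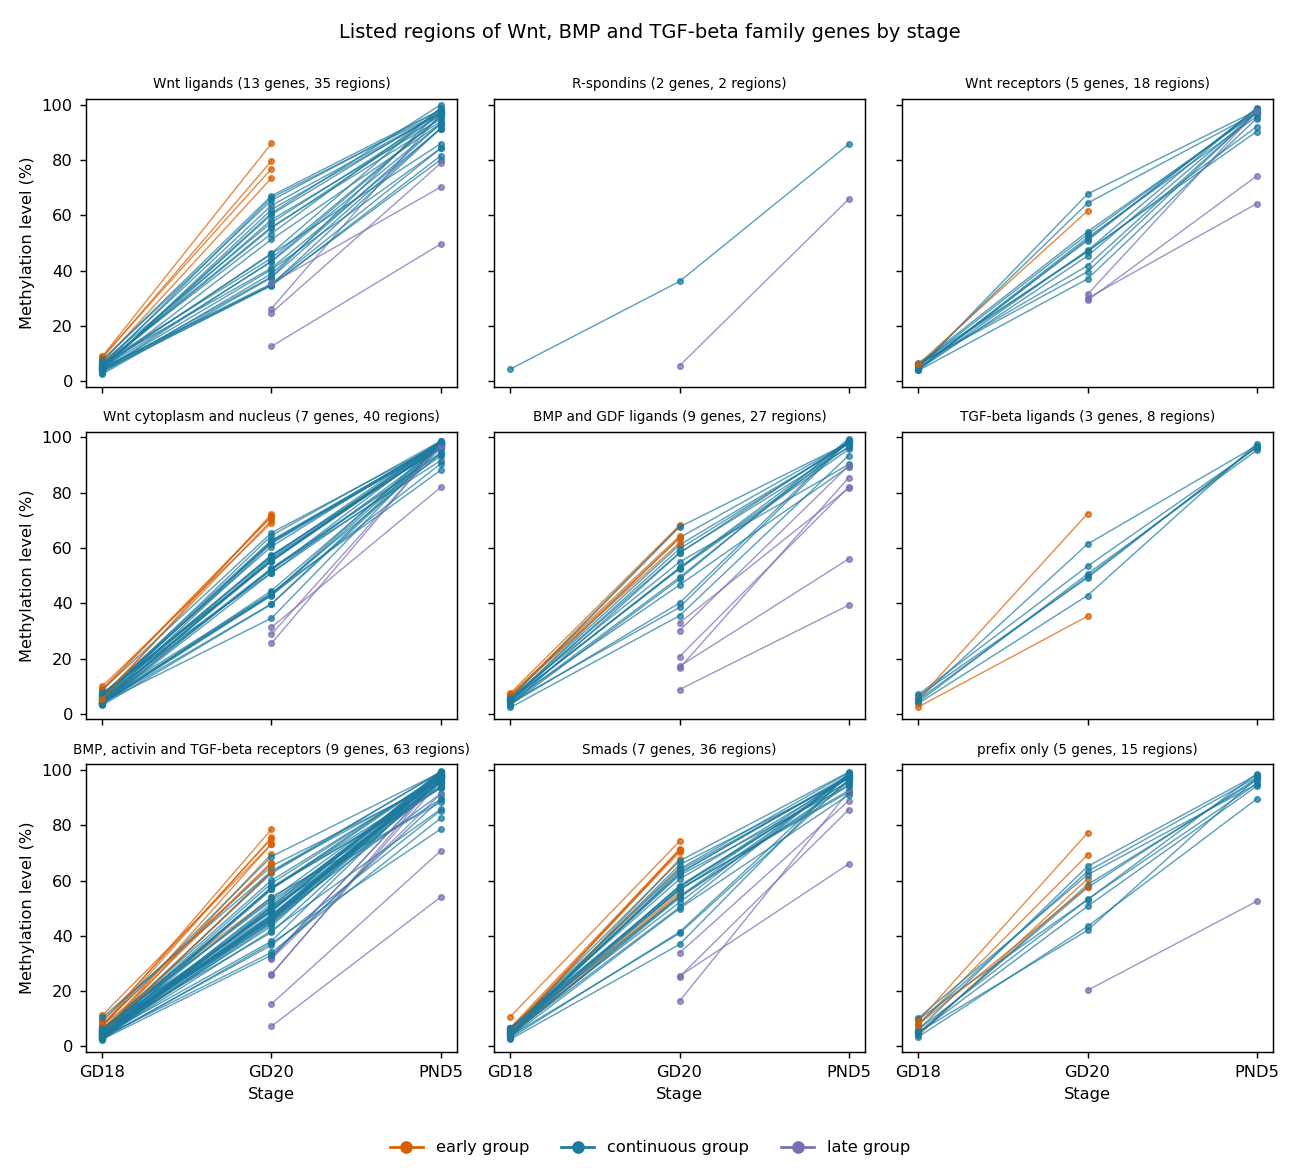
Methylation level (%) of each family region at GD18, GD20 and PND5, with a panel for each role and a line for each region; panels count the genes and regions with a level at these stages. Orange, blue and purple mark the authors' early, continuous and late groups, and GD18 levels lie near the bottom while most PND5 levels lie near the top; regions of the early group carry no PND5 level and those of the late group no GD18 level.

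Between GD20 and PND5, 59 of the 62 family genes (95.2%) had a listed region, beside 90.8% of all named genes. All 204 listed family regions were higher at PND5, by a median of 44.35 points, against 44.4 points over all 22364 listed named regions. The share of all named regions that rose was not counted, so the direction was not read as a result. Of the 46665 regions of this list, 22364 carried a gene name, so the absence of a gene from it is not certain. The median family level was 96.8% at PND5, against 50.1% at GD20. Smad5, a receptor Smad of the BMP branch, had the largest difference, with 92.2% at PND5, against 16.4% at GD20, in exon 4. Axin2 followed with 97.5% at PND5, against 25.5% at GD20, in exon 5 (chr10:97230961-97231550). Acvr2b was at 97.7% at PND5, against 26% at GD20, at its TTS. These regions were named for the size of their difference, so a low GD20 level and a high PND5 level were built into the choice.

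Among the Wnt ligands, Wnt11, a ligand of the branch without beta-catenin, was at 96.7% at PND5, against 26.3% at GD20, in exon 3. Wnt3 was at 97.9% at PND5, against 37.8% at GD20, in intron 1. Rspo1 was at 85.7% at PND5, against 36.1% at GD20, in intron 1. The promoter region of Lrp6 (chr4:168297221-168297347, 5 CpGs) was at 97.6% at PND5, against 31.4% at GD20. Fzd6 was at 95% at PND5, against 37.0% at GD20, in intron 6. In the nucleus and cytoplasm, Tcf7l1 was at 97.0%, against 28.8%, in intron 3, where another region had already stood at 72.3% at GD20. Apc was at 97.5% at PND5, against 34.6% at GD20, at its TTS. Dvl1 had the smallest of the largest differences per gene among these, with 96.3% at PND5, against 51.0% at GD20, in exon 10. Tcf7l1, Apc and Dvl1 ended near the same level at PND5 from unlike levels at GD20. Among the BMP ligands, Bmp7 was at 98.7% at PND5, against 38.5% at GD20, in intron 5. Bmp3 was at 85.4% at PND5, against 16.5% at GD20, in intron 1. Bmp4 was at 82.0% at PND5, against 20.7% at GD20, in its exon 3. Gdf10, a BMP-related ligand, was at 89.7% at PND5, against 30.1% at GD20, in its 3′ untranslated region. The TGF-beta ligands were closer together, Tgfb3 with 97.7% at PND5, against 42.8% at GD20, in intron 3. Tgfb1 was at 96.2%, against 53.4%, in intron 1.

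Among the receptors, Acvrl1, the type I receptor known for its role in blood vessels, was at 96.0% at PND5, against 26.3% at GD20, in its 3′ untranslated region. Acvr1 was at 97.3% at PND5, against 32.4% at GD20, in intron 7. Acvr1c was at 91.3% at PND5, against 31.7% at GD20, in intron 2. Tgfbr3 was at 98.1% at PND5, against 38.1% at GD20, in exon 3, and Bmpr1b at 98.1%, against 56.8%, in intron 4. These receptor regions all ended above 91% at PND5. Among the Smads, Smad1 was at 98.9% at PND5, against 36.9% at GD20, in intron 5. Smad6, an inhibitory Smad, was at 85.6% at PND5, against 25.2% at GD20, in intron 3. Smad2 had less left to gain, with 95.9% at PND5, against 58.2% at GD20, in intron 10. Of the genes that share only a prefix, Bmper was at 97.0%, against 42.0%, in intron 10, and Bmp1 at 96.9%, against 57.5%, in intron 12. The smallest of the largest differences per gene were those of Fzd5 and Bmp6. Bmp6 was at 98.1% at PND5, against 63.7% at GD20, in intron 5.

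The authors sorted regions with these 2 lists into an early group, listed to GD20 and not beyond, a continuous group, listed in both, and a late group, listed from GD20 on. Since the groups were made from these levels, they are a description. Of 244 family regions in a group, 40 (16.4%) were early, 175 (71.7%) continuous and 29 (11.9%) late, against 16.9%, 68.6% and 14.5% of all 26932 named regions. The early family regions had a median of 1.685 CpGs per 100 bp, the continuous 2.18 and the late 2.50. Over all named regions these medians were in the same order, at 1.82, 2.05 and 2.38. In the 175 continuous regions the median level was 4.8% at GD18, 52.1% at GD20 and 97.1% at PND5. The share of the whole gain from GD18 to PND5 that was reached by GD20 had a median of 51.4% (quartiles 44.6% and 58.75%), against 52.8% over all 18475 named regions with these 3 levels. By role this share was 57.7% in the Smads (23 regions), 53.95% in the Wnt genes of the cytoplasm and nucleus (32 regions) and 52.3% in the BMP and GDF ligands (16 regions). It was 50.4% in the Wnt ligands (27 regions), 49.8% in the TGF-beta ligands (6 regions), 49.3% in the Wnt receptors (14 regions) and 47.25% in the receptors of the TGF-beta superfamily (46 regions). The interquartile ranges of the Smads (52.95% to 61.8%) and of these receptors (44.65% to 55.925%) overlapped, and regions of 1 gene are not independent, so no order of the roles was tested.

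**Figure D2:**
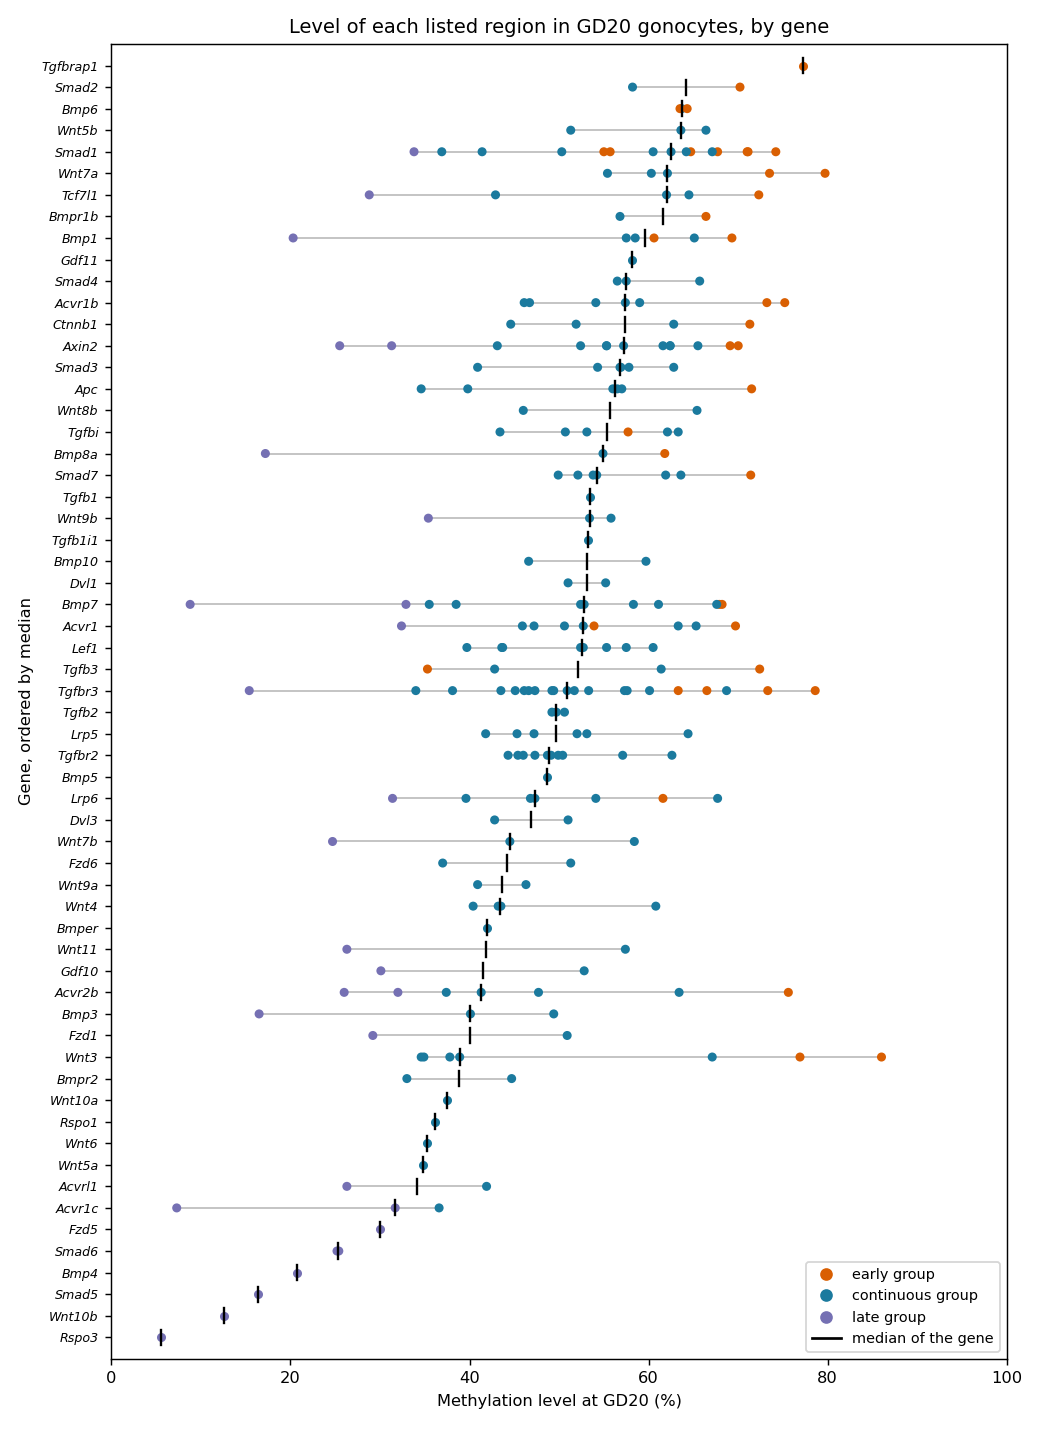
Methylation level (%) at GD20 of each family region, a row per gene, with genes ordered by their median (black bar) and regions coloured by the authors' early, continuous and late groups. Wnt3 runs from 34.6% to 86.0% and Bmp7 from 8.8% to 68.2%, while Bmp6 lies between 63.5% and 64.3%.

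Levels varied within genes. Of the 62 genes, 29 held regions of at least 2 gain groups and 10 held all 3, while 24 held continuous regions only, 6 late only and 1, Tgfbrap1, early only. Fzd2 and Gdf1 had no gain group. A gene with more regions can hold more groups. Neither these counts nor the differences of neighbours below were made over all named genes, so they describe the family genes without setting them apart. Of 44 pairs of neighbouring regions in a gene at most 1000 bp apart, 39 had a GD20 level for both, and these levels differed by a median of 8.5 points and by up to 49.0 points. The widest pair was in Bmp1, where intron 6 was at 69.3% and exon 4, 957 bp away, at 20.3%. In Axin2, exon 5 was at 25.5% and intron 7, 868 bp away, at 70%. In Acvr2b, 2 regions of intron 1 that lie 936 bp apart were at 75.6% and 37.4%. Other neighbours matched closely, such as the intron 3 pair of Smad6 at 25.4% and 25.2%. Smad1 held 7 early, 7 continuous and 1 late region, and all 7 early ones lay in introns 1 and 2. In Tgfbr3 4 regions were early, 16 continuous and 1 late.

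**Figure D3:**
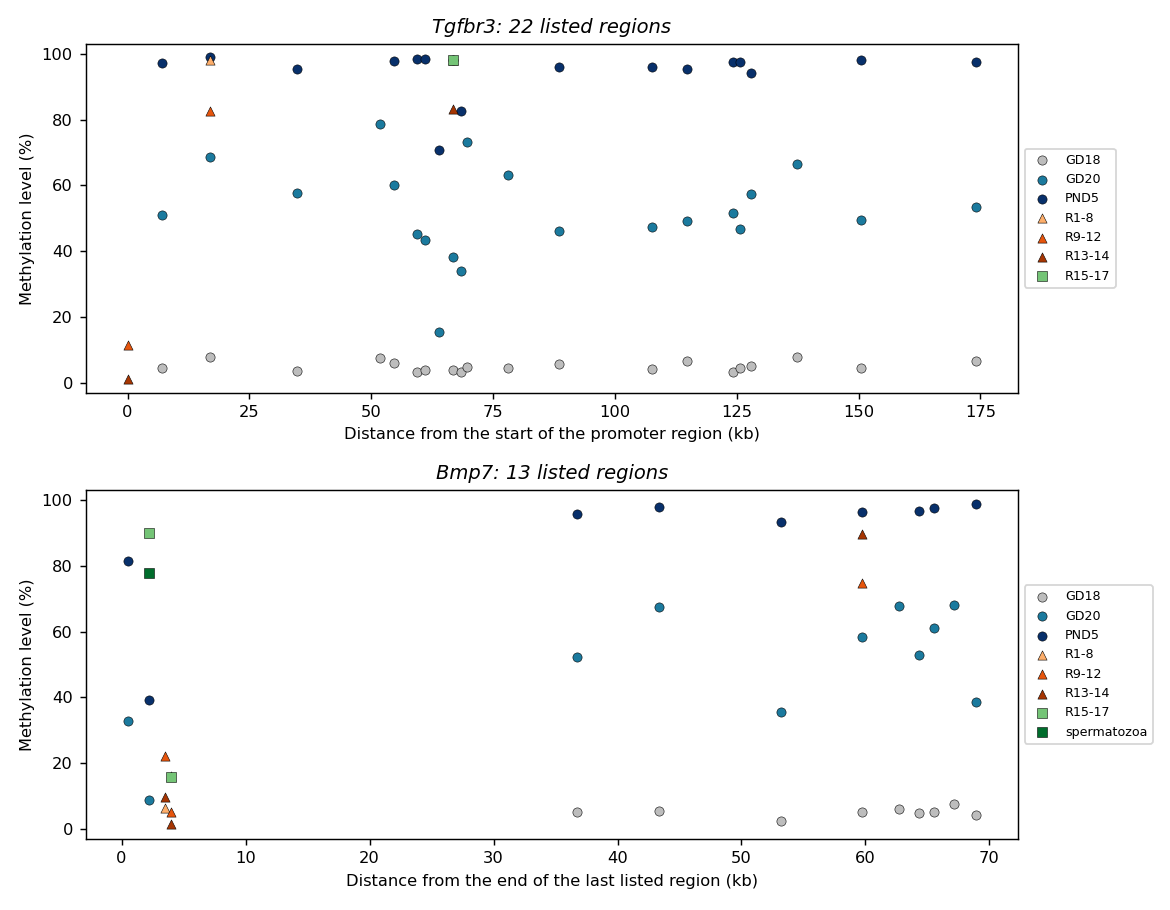
Methylation level (%) of the listed regions along Tgfbr3 (above) and Bmp7 (below) against distance in kb, with a symbol per stage and region. In Tgfbr3 the GD20 levels run from 15.4% to 78.6% and the promoter region at 0 carries spermatid levels only; in Bmp7 the 4 intron 1 regions at the left differ from those further along, and the R1-8 level of 16.2% lies behind the R15-17 level of 15.9%.

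By PND5 most family regions were near full methylation: 137 of 204 (67.2%) were at 95% or more, against 69.3% of all named regions in the list. Among the Wnt ligands 15 of 31 (48.4%) were at 95% or more, with a median of 94.8%, while all 6 of the TGF-beta ligands were. Only 8 family regions (3.92%) were below 70% at PND5, against 3.78% of all named regions, and all 8 belonged to the late group. The lowest was a region of Bmp7 intron 1 (chr3:170951077-170951614, 5 CpGs), at 39.3% at PND5, against 8.8% at GD20. Wnt10b was at 49.6% at PND5, against 12.6% at GD20, in exon 4. Bmp1 was at 52.5%, against 20.3%, in exon 4. These 3 regions were thus near or below the middle of the scale after birth.

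Acvr1c was at 54.0% at PND5, against 7.3% at GD20, in intron 8. Bmp8a, a BMP ligand expressed in male germ cells of the mouse, was at 56.0%, against 17.2%, in intron 1. Fzd5, a Frizzled receptor, was at 64.2%, against 30.0%, at its TTS. Rspo3 was at 65.8%, against 5.6%, and Smad6 at 66.0%, against 25.4%, in a second region of intron 3. Of these 8 regions, those of Bmp7, Acvr1c, Fzd5 and Rspo3 came back in the spermatid lists.

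In the spermatid lists 24 family regions of 17 genes had a level, or 9.41% of the 255, against 10.6% of all named regions. Between R1-8 and R9-12 spermatids, 10 of the 62 genes (16.1%) had a listed region, beside 11.5% of all named genes. Of the 11 family regions 4 rose and 7 fell, while 57.3% of all named regions in that list rose. Between R9-12 and R13-14, 10 genes (16.1%) were listed, beside 17.9% of all, and of 13 regions 3 rose and 10 fell, while 22.2% of all rose. Between R13-14 and R15-17, 8 genes (12.9%) were listed, beside 11.3% of all, and 6 of 8 regions rose, while 80.8% of all did. Between R15-17 spermatids and spermatozoa, 2 genes (3.23%) were listed, beside 4.81% of all, and 1 of 2 regions rose, while 60.5% of all did. These counts are small, and neither the shares of genes nor the splits of direction were tested against the rest. Only 1112 of the 3722 regions of the first spermatid list carried a gene name, then 1830 of 5612, 1044 of 3023 and 420 of 1691. Regions without a name may lie in family genes, so the absence of a gene from these lists is not certain.

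Among the Wnt ligands, Wnt4, known for female gonad development, had a region in its last exon (chr5:155667712-155667949, 23 CpGs) at 18.7% in R9-12 spermatids, against 5.8% in R1-8. A region 268 bp on, at the TTS, was high instead, at 83.2% in R13-14, against 93.9% in R9-12. Wnt9b, a ligand of kidney and urogenital development, had an exon 3 region at 96.2% in R1-8, 83.7% in R9-12 and 96.8% in R13-14. The intron 1 region of Wnt8b was at 98.1% in R15-17, against 87.2% in R13-14. Wnt7b had a region of 30 bp in intron 3 at 1.7% in R15-17, against 14.6% in R13-14. The Wnt ligands thus had both low and high regions in motion, and no ligand region crossed from low to high.

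Rspo3 moved most between R9-12 and R13-14 among the family regions, with 88.3% in R9-12, 54.4% in R13-14 and 71.3% in R15-17 in the same intron 4 region that was low at GD20. Fzd1 had the largest fall in the first list, to 9.2% in R9-12 spermatids, against 47.2% in R1-8, within its single exon (chr4:26471417-26471629, 11 CpGs). The TTS region of Fzd5 was at 67.1% in R15-17, against 82.0% in R13-14. Fzd2 was at 11.2% in spermatozoa, against 1.0% in R15-17, at its TTS. The Wnt genes of the cytoplasm and nucleus, from Apc to Tcf7l1, had no named region in any spermatid list. Unnamed regions in these genes, if any, could not be counted.

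Of the BMP and GDF ligands, Bmp7 had 4 regions. Of the neighbouring pair in intron 1 that lies 289 bp apart, 1 (chr3:170949503-170949641) was at 16.2% in R1-8, 5.0% in R9-12, 1.6% in R13-14 and 15.9% in R15-17. The other (chr3:170949931-170950228) was at 6.3% in R1-8, 22.1% in R9-12 and 9.6% in R13-14. They moved in opposite directions between R1-8 and R9-12. The intron 1 region that was lowest at PND5 was at 77.9% in spermatozoa, against 90.1% in R15-17. The intron 3 region was at 89.7% in R13-14, against 74.8% in R9-12.

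Bmp6 was at 4.2% in R9-12, against 18.9% in R1-8, in intron 4. Gdf1, a ligand of left-right patterning, had a TTS region (chr16:20845001-20845162, 17 CpGs) at 8.3% in R1-8, 29.7% in R9-12 and 2.9% in R13-14, and an exon 8 region 876 bp away at 1.8% in R13-14, against 12.9% in R9-12. Gdf10 was at 96.8% in R9-12, 84.7% in R13-14 and 96.7% in R15-17, in intron 1. Tgfb3 was at 65.7% in R9-12, against 79.2% in R1-8, in exon 1, the region that had the lowest GD20 level of that gene at 35.3%.

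Of the receptors, Acvr1c was in 3 of the lists with the intron 8 region of 13 CpGs, at 29.1% in R1-8, 41.5% in R9-12, 23.3% in R13-14 and 46.9% in R15-17. The promoter region of Tgfbr3 (chr14:3506355-3506504, 13 CpGs) was at 1.2% in R13-14, against 11.5% in R9-12. Its intron 1 region was at 82.7% in R9-12, against 98.2% in R1-8, and its exon 3 region was at 98.2% in R9-12, 83.3% in R13-14 and 98.2% in R15-17. Tgfbr2 was at 0.0% in R13-14, against 12.0% in R9-12, in a region of 80 bp in intron 1, and the other 10 regions of the gene were in no spermatid list. Smad1, the Smad with a named spermatid region, was at 94.9% in R1-8, 84.7% in R9-12 and 97.2% in R13-14, in intron 1.

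In all 9 cases where a family region was in 2 consecutive spermatid lists, the directions were opposite. Consecutive lists share the middle stage, so a deviation of that stage alone gives opposite directions, and the share was not read as a result. Split by level, all 4 family regions that were at 50% or more in R1-8 were lower in R9-12, and the 7 below 50% in R1-8 divided into 4 higher and 3 lower. Over all named regions of that list, 419 of 474 at 50% or more were lower and 582 of 638 below 50% were higher. Listing needed a change of at least 10 points, so a region near an end of the scale could be listed in 1 direction only. Those of Smad1, Wnt9b and Tgfbr3, for example, began at 94.9%, 96.2% and 98.2%. The split by level was therefore largely set by the cutoff and was not read as a result.

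**Figure D4:**
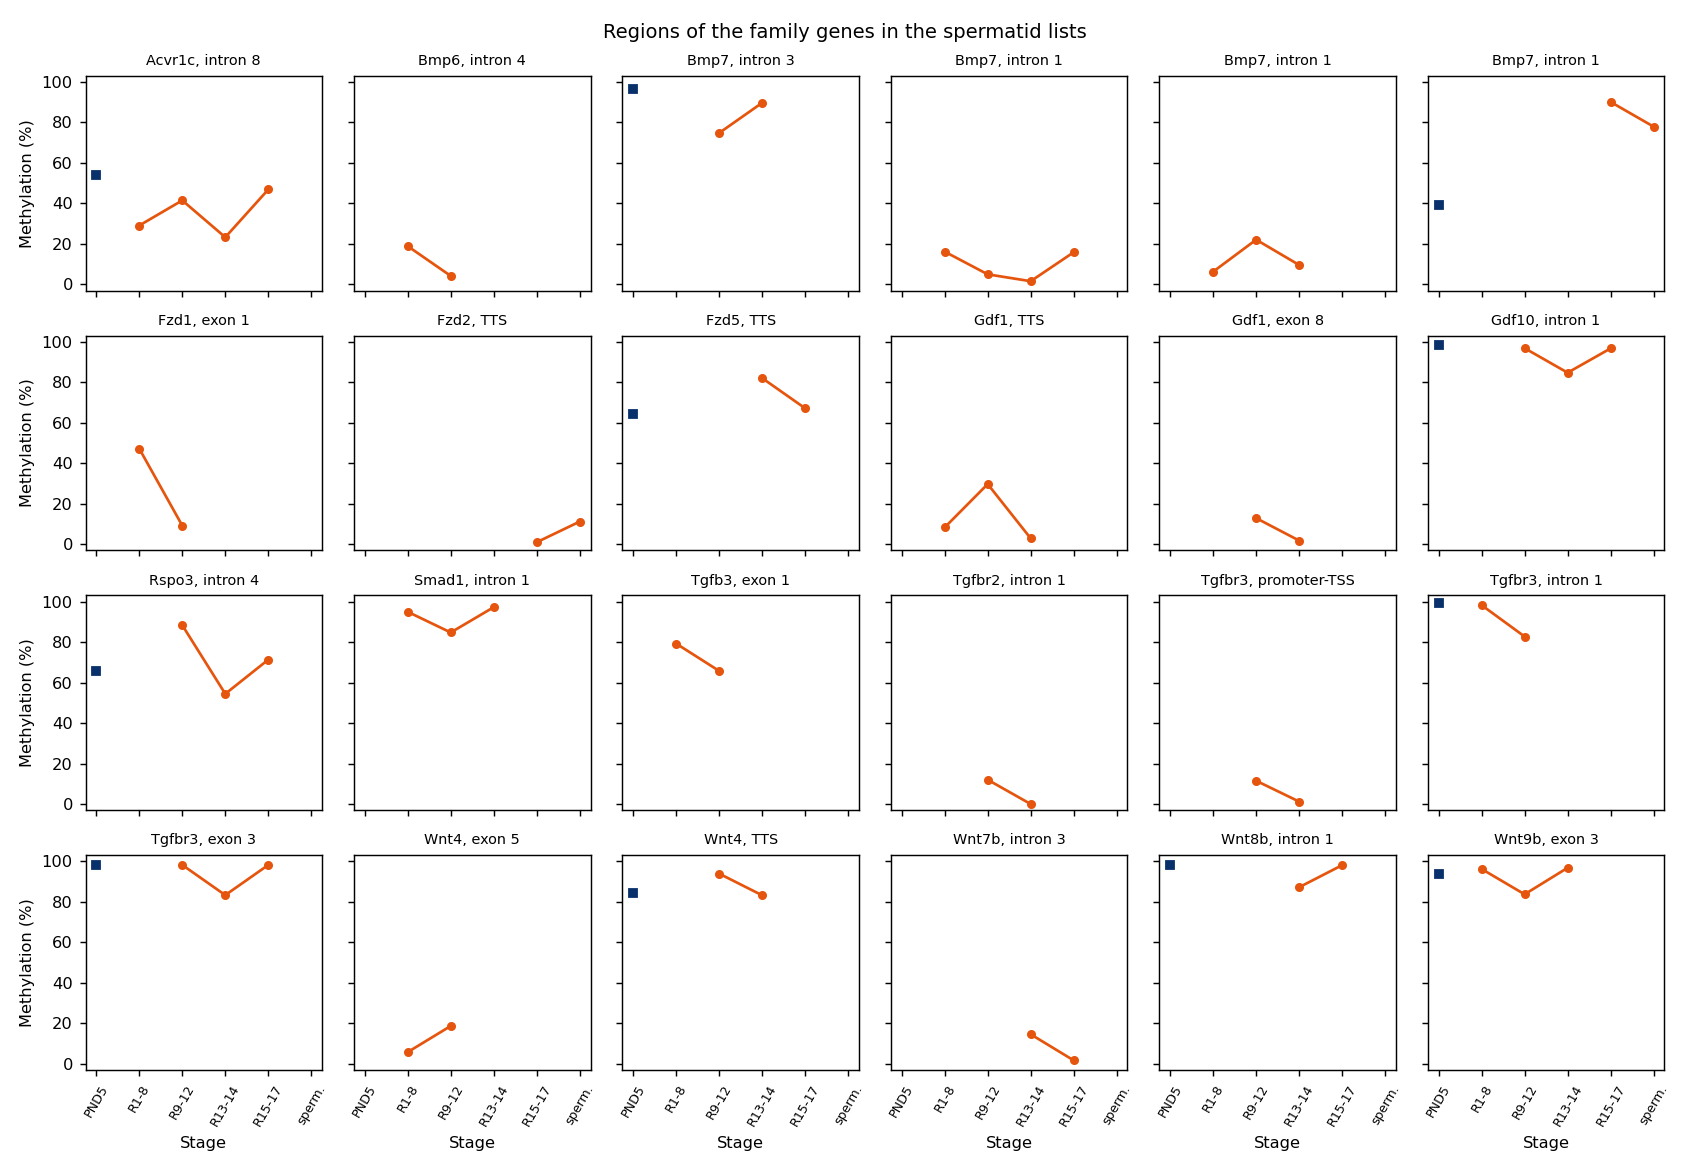
Methylation level (%) of the 24 family regions of the spermatid lists, a panel each, from R1-8 spermatids to spermatozoa (sperm.), with the PND5 level as a square where the region has one. A level is shown only at stages of a list that holds the region, and the line of the Bmp7 region at 16.2% in R1-8 also spans R9-12 to R13-14, a step in which it was not listed. Most lines stay in the lower or the upper part of the scale, and Fzd1, Rspo3 and Acvr1c move through the middle.

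Other genes of the same pathways were looked at as a list of 85, with antagonists, other receptors, inhibins and latent TGF-beta binding proteins, of which 52 had a region. Of these, 41 (78.8%) gained by GD20, beside 84.5% of all named genes, and 49 (94.2%) by PND5, beside 90.8%, and 0 lost in these lists. Lgr5, a receptor of R-spondins, was the 1 gene of the list in the first comparison, and its intron 1 region was at 5.7% at GD18, against 41.7% at GD16. In spermatids the list had 4 genes with a region that rose and 6 with a region that fell by R9-12, 3 and 9 by R13-14, 7 and 0 by R15-17, and 0 and 2 in spermatozoa. In either direction that was 19.2%, 23.1%, 13.5% and 3.85% of the 52 genes, beside 11.5%, 17.9%, 11.3% and 4.81% of all named genes. Inha, the inhibin alpha subunit, had a promoter region at 91.9% in R1-8, 76.7% in R9-12 and 95.2% in R13-14. Dkk3, of the Dickkopf family of secreted Wnt regulators, had a promoter region at 16.2% in R1-8, 26.9% in R9-12 and 15.2% in R13-14. Ltbp4, a latent TGF-beta binding protein, had an intron 25 region at 30.5% in R9-12, against 1.1% in R1-8. These were chosen for display after their values were seen.

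For the continuous group, the authors' deposited table of ontology terms listed beta-catenin binding with 54 of 66 genes at an adjusted p of 0.000562. Of the 54 genes, 10 carry a family symbol, and the group held 5761 of 10394 background genes. In the authors' deposited table the Wnt signaling pathway term had 212 of 324 genes at an adjusted p of 0.019, with 29 family symbols. For this kind of term the continuous group held 6145 of 11100 background genes. In the authors' deposited table the planar cell polarity term had 28 of 31 genes at 0.00769 in the continuous group, with 10 family symbols. In the late group, which held 2718 of 11100 background genes, the authors' deposited table gave it 16 of 31 genes at 0.0451. Of these 16, 5 carry a family symbol. The early group held 2329 of 10394 background genes. For it, the authors' deposited table gave beta-catenin binding with 31 of 66 genes at an adjusted p of 0.00136, with 6 family symbols. Tcf7l2 and Wnt3a stand among these symbols, although no annotated region was matched to them here. The genes of a term were chosen by the same lists, so the terms are not independent of the counts above.

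Genes of other cell types were in the lists as well, and are set beside 84.5% of all named genes at GD20 and 90.8% at PND5. Of 10 Sertoli cell markers, 7 had a region, and 3 (42.9%) gained by GD20 and 6 (85.7%) by PND5. Of 6 Leydig and peritubular markers 1 had a region, which gained by both stages. Of 6 blood and endothelium markers 4 had a region, and 4 gained by GD20 and 3 (75%) by PND5, while 1 lost methylation by GD18. Of 6 germ cell markers 5 had a region, and 3 (60%) gained by GD20 and 4 (80%) by PND5. In the spermatid lists, 2 Sertoli cell markers (28.6% of those with a region) were listed by R9-12 and 2 (28.6%) by R13-14. Of the blood and endothelium markers, 1 (25%) was listed by R13-14 and 1 (25%) by R15-17. Of the germ cell markers, 1 (20%) was listed by R9-12 and 1 (20%) by R13-14. Over all named genes these shares were 11.5% by R9-12, 17.9% by R13-14 and 11.3% by R15-17. A part of other cells in the levels of the family genes was not tested.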

How the data were processed

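Reads were handled with Bismark 0.19.0 and Bowtie2, per the submitters' processing notes. Per the series' design text, levels per locus were segmented into stretches of at least 50 bp before the search for regions. The listed intron 3 region of Wnt7b, of 30 bp, is shorter than this, and the sources used here do not say why. The build, coverage minimum and way of combining samples were not given in the sources used here. Levels were deposited by the authors as a fraction each, printed here as a percentage, with a p-value and an adjusted p-value per region, per the file headers. Their annotation tables start 1 bp later than the lists and were joined on that basis. Of 29951 annotated regions, 1 was in no list, and 28182 (94.1%) got a symbol from RefSeq accessions of GRCr8, which left 1769 unnamed. The 40522 levels held by more than 1 list never differed between lists. No test was run here, since no values per sample were used, and differences are later minus earlier stage. Family genes, the list of other pathway genes and the marker lists were chosen with earlier results of these data known. Regions were named where the gene was in the GD18 list or a spermatid list, where they lay in a promoter, for the 20 genes with the largest differences in either later list, and for the extremes of each role; others were named after their values were seen. Tables were made with Python 3.11.15 and pandas 2.3.3, and the counting was tested on simulated lists. Alternatives changed the smallest difference, the authors' adjusted p, the gene parts and the regions per gene. Depth per region is unknown.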

Additional observations from a re-analysis of the deposited data

How the results depend on the processing

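Of 65 combinations of a result and a setting, 20 moved and 2 reversed. The other 43 stayed within 1.5 times the reported count or inside the interval of the reported median. That interval is wide for the few spermatid regions: the median of 13.15 points between R13-14 and R15-17 (8 regions) became 0 with introns left out (2 regions), 23.6 with at least 20 points (1 region) and 18.95 at an authors' adjusted p of at most 0.001 (2 regions). Leaving out introns cut the family genes listed at GD20 to 35 (against 54), those at PND5 to 38 (against 59), and the spermatid counts to 5, 4, 2 and 1 genes in order. It also gave a median difference of 46.45 points at GD20. With differences of at least 40 points, or 20 points in spermatids, the median difference was 52.05 points at GD20 and 48.7 points at PND5, and the spermatid counts were 2, 2, 1 and 0 genes, with a median of -30.35 points between R9-12 and R13-14. At that p the spermatid counts were 6, 6, 2 and 1 genes. With 1 region per gene the medians were 46.7 points at GD20 and 46.9 points at PND5. In spermatozoa the median of 2 regions, -1 point, became 10.2 points both with introns left out and at the stricter p, since 1 region was left. The stricter settings keep fewer regions by construction. An overlap of 1 bp as the match of regions and leaving out genes that share only a prefix changed no count by over 1.5 times. A minimum of 5 CpGs could change nothing, since the lists already have it, and is left out of the 65. No median exists for GD18 against GD16, which had 0 family regions under every setting and is left out too. Some of the 65 could not change either. No gene that shares only a prefix was in a spermatid list, and in the last 2 spermatid lists each family gene had 1 region. The 43 are therefore not read as a measure of stability. No paired analysis was possible because the deposited levels are means per stage with no values per sample, and for the same reason no replicate could be left out. The depth per region is unknown, so which regions rest on few reads cannot be told.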
